A study of Mus musculus with 18 samples.

Results

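Connexins are the channel proteins of gap junctions, and 7 connexin genes, Gja1, Gja4, Gjb1, Gjb2, Gjb5, Gjb6 and Gjc1, were followed in sorted mouse mammary epithelial cells. They were taken by gene symbol from a deposited table of 46257 gene IDs, and each symbol occurred once. A list of 10 other connexins is described beside them. RNA of 3 populations was sequenced at 3 stages: luminal cells with the estrogen receptor (ER+), which respond directly to ovarian hormones, luminal cells without it (ER-), from which milk-secreting alveolar cells arise, and basal cells, which include the contractile myoepithelium. Cells came from pubertal, adult and mid-pregnant glands, which gives 9 groups of 2 libraries each, 18 libraries in all. Every sample carried the genotype ERrtTA/TetOCre/rosaYFP, that is, a reverse tetracycline transactivator, a Cre recombinase under a tetracycline operator and a yellow fluorescent reporter at the Rosa locus. The sources used here do not give the ages of the mice, the sorting gates, any doxycycline treatment or any pooling of animals. Nothing in the labels says that the 2 libraries of a group came from separate animals, so a p-value speaks only of the spread between these libraries, part or all of which may be technical.

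In a gap junction, rings of connexins in neighbouring membranes dock and let ions and small metabolites pass from cell to cell, and which connexins a cell makes sets which neighbours it can couple to and what passes. In the mammary gland, the product of Gja1 is known as the connexin of the basal and myoepithelial layer, and those of Gjb2 and Gjb6 as connexins of the secretory luminal epithelium in pregnancy and lactation. Gjb1 encodes the main liver connexin, Gja4 an endothelial one, Gjc1 one of smooth muscle and the conduction system of the heart, and Gjb5 one of stratified epithelia.

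Gjb2 and Gjb6 lie close together on the minus strand of chromosome 14, Gjb2 at chr14:57098600-57104702 and Gjb6 at chr14:57123303-57133611 (GRCm38, GENCODE vM21), with 18.6 kb and 1 other coding gene between them, and both were highest in pregnancy. Gja1 lies elsewhere, on the plus strand at chr10:56377330-56402513, and followed population more than stage. The windows from 250 bases before to 50 bases after the start of these 3 genes, as RefSeq gives them for GRCm38.p6, are printed 5′ to 3′ because they made up most of the summed level of the 7 genes in each group mean and showed the 2 contrasting patterns. Capitals mark matches, on either strand, to the GC box GGGCGG, the TATA box TATAAA, the STAT5 motif TTCNNNGAA and the AP-1 motif TGANTCA.
Gjb2 promoter, chr14:57104653-57104952, minus strand: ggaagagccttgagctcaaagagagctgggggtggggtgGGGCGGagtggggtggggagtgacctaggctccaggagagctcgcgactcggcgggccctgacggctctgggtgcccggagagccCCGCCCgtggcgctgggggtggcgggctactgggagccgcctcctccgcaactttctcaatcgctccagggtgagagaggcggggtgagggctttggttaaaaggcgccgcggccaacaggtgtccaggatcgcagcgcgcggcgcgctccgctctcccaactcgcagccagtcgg
Gjb6 promoter, chr14:57133562-57133861, minus strand: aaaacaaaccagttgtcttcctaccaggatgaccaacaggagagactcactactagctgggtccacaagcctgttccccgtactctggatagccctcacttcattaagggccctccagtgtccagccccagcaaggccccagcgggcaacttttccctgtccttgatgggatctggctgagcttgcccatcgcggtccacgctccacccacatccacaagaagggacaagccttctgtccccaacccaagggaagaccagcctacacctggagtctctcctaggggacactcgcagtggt
Gja1 promoter, chr10:56377050-56377349, plus strand: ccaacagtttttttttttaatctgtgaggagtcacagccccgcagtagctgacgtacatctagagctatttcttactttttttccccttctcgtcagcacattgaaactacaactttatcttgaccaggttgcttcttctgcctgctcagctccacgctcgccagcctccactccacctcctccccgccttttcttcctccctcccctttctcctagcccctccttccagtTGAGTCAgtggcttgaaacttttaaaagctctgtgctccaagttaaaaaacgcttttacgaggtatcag
The Gjb2 window held 2 GC boxes and had a GC content of 70.0%, against a median of 52.7% over 32851 RefSeq promoter windows of the same length. The Gjb6 window had a GC content of 57.3% and held none of the 4 motifs. The Gja1 window had a GC content of 47.7% and held 1 AP-1 match at position -19 from the start. Of all windows, 35.7% held a GC box, 13.6% a TATA box, 8.3% a STAT5 match and 7.8% an AP-1 match. None of these letters in a window says that a factor binds there or does not. Promoter windows were found for 6 members, all but Gjc1.

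Values below are the deposited signal, which behaves as reads per gene scaled to a common library total of 20000000. The steps between low values put 1 read at a value of 1.75 to 8.25 and the depth at 2412000 to 11319000 reads in genes. The 4 adult luminal libraries were the shallowest, at 2412000 to 3174000 reads. The populations were checked against marker lists. The summed value of 8 basal markers was 141611 to 311384 in the basal libraries and 880 to 38186 in the luminal ones, although only the adult basal samples are labelled basal cells and those of the other stages BC luminal cells. The sum of 7 ER- luminal markers was 33965 to 75318 in the ER- libraries and 3680 to 28935 in the ER+ libraries. The sum of 8 ER+ luminal markers was 32418 to 221057 in the ER+ libraries and 6554 to 45494 in the ER- libraries, and these ranges overlap through pregnancy ER+ replicate 2, which had the lowest ER+ sum (32418) and the highest ER- sum (28935) of the ER+ libraries. Adult basal replicate 1 stood apart from its partner in the sum of 6 milk protein genes, 270379 against 38666. Some of the results that rest on these 2 libraries or on the adult luminal libraries are also given without them. In bulk samples such as these, fewer cells of a type and less RNA per cell cannot be told apart.

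The makeup of the 7 connexins differed between populations and stages. Per kilobase of merged exons, Gja1 made up 80.21% of their sum in puberty basal cells, 64.08% in adult and 36.32% in pregnancy basal cells (means of 2 libraries). The adult basal libraries had 45.09% and 83.07% in replicates 1 and 2, so the lower adult mean rests on replicate 1. In pregnancy basal replicates 1 and 2, Gja1 had 42.95% and 29.69%, and Gjb2 41.14% and 50.9%. In ER- luminal cells Gjb2 led at every stage, with 54.67% in puberty, 87.59% in adulthood and 72.92% in pregnancy. ER+ luminal cells went from 61.46% Gja1 and 6.54% Gjb2 in puberty to 57.35% Gjb2 and 32.35% Gja1 in adulthood. The 2 puberty ER+ libraries differed, with Gja1 at 43.85% and 79.07% and Gja4 at 36.27% and 0% (mean 18.13%), and Gjc1 had a mean of 7.66%. In pregnancy the ER+ and ER- luminal makeups had 70.62% and 72.92% Gjb2, 20.75% and 23.3% Gjb6, and 6.54% and 2.88% Gja1. Gjb6, which made up at most 0.58% in any puberty group, was 12.68% in pregnancy basal cells. The summed level per kilobase of the 7 genes had a mean of 165.6 in puberty and 3069 in pregnancy ER+ cells (1443 and 4695 in replicates 1 and 2), of 324.9 and 5381 in ER- cells, and of 972.7 and 2278 in basal cells. These sums and shares are descriptions without a test. They depend on the length used for Gja1, whose merged exons span 10257 bases and whose longest transcript 3889: with longest transcripts Gja1 and not Gjb2 leads in puberty ER- cells (47.54% against 37.64%), in adult ER+ cells (54.65% against 37.02%) and in pregnancy basal cells (58.07% against 28.41%).

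**Figure D1:**
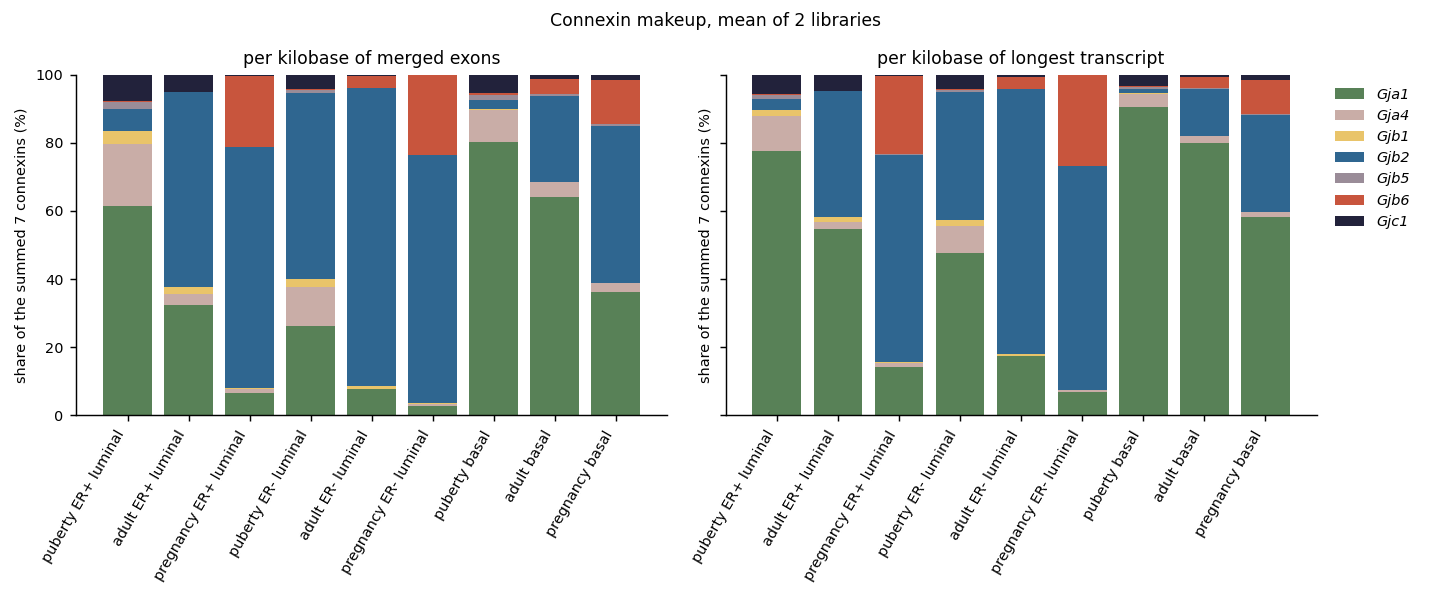
Share of each of 7 connexins in their summed level per kilobase (vertical axis, percent) in the 9 groups, as means of 2 libraries, with merged exon length on the left and longest transcript length on the right. Gja1 fills most of the puberty and adult basal bars on both sides, and Gjb6 is visible mainly in the pregnancy bars.

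Gja1, the most widely expressed connexin gene of the body, was highest in basal cells in every library. Its values were 7950 and 8045 in puberty basal cells, 10294 and 11944 in adult basal cells, and 8648 and 7898 in pregnancy basal cells. The ER+ luminal libraries had 1001 and 880 in puberty, 334 and 314 in adulthood, and 1591 and 1121 in pregnancy. The ER- luminal libraries had 1093 and 627, 471 and 646, and 1562 and 1559 at these stages. No luminal library came near a basal one. The 2 luminal populations overlapped in puberty and in pregnancy but not in adulthood, where ER+ values were the lower. Averaged over the stages, Gja1 was higher in basal than in luminal cells by 3.47 ± 0.12 (log2 of value + 1, estimate ± standard error; limma adjusted p = 2.03e-11 over 22315 genes), and by 2.85 without the adult libraries (limma adjusted p = 1.28e-07). Between ER+ and ER- luminal cells Gja1 differed by -0.27 ± 0.13, which did not pass (limma adjusted p = 0.158). The difference was -0.4 without puberty ER- replicate 2. Without the puberty libraries it was -0.5 and passed (limma adjusted p = 0.0353).

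In ER+ luminal cells Gja1 was lowest in adulthood, and in ER- cells adulthood and puberty overlapped. In ER+ luminal cells it fell from a mean of 940.5 ± 85.6 in puberty (SD, n = 2) to 324.0 ± 14.1 in adulthood (log2 difference -1.53 ± 0.23, limma adjusted p = 0.000849) and was 4.19-fold higher in pregnancy than in adulthood (2.04 ± 0.23, limma adjusted p = 2.9e-05). In ER- luminal cells it was 2.79-fold higher in pregnancy than in adulthood (1.5 ± 0.23, limma adjusted p = 0.00101), while adulthood against puberty did not pass (-0.58 ± 0.23, limma adjusted p = 0.196). The higher level in pregnancy than in puberty of ER- cells (0.91 ± 0.23, limma adjusted p = 0.0155) did not pass without puberty replicate 2 (0.51, limma adjusted p = 0.247) or without either pregnancy library. In ER+ cells the same comparison gave 0.51 ± 0.23 (limma adjusted p = 0.178). In basal cells no stage difference of Gja1 passed: 0.05 ± 0.23 for pregnancy against puberty, -0.42 ± 0.23 for pregnancy against adulthood and 0.47 ± 0.23 for adulthood against puberty.

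Basal markers and Gja1 were both highest in pregnancy in the luminal libraries. From puberty to adulthood both fell in ER+ cells as a percent of the basal mean, while in ER- cells only Gja1 did. In percent of the basal mean of the same stage, Gja1 was 11.8% in ER+ and 10.8% in ER- cells in puberty, 2.9% and 5.0% in adulthood, and 16.4% and 18.9% in pregnancy. The summed basal markers were 2.3% and 2.9%, 1.8% and 3.2%, and 9.4% and 12% of their basal mean at these stages. Gja1 stood above the basal marker share in each of the 12 luminal libraries. The 2 puberty ER+ libraries had marker sums of 12236 and 880 with Gja1 at 1001 and 880. The 2 puberty ER- libraries had marker sums of 13467 and 3057 with Gja1 at 1093 and 627. Adult marker sums lay between those of puberty, at 2238 and 3070 in ER+ and 4673 and 4860 in ER- libraries. The part of basal cells in the luminal Gja1 values was not tested.

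Gjb2, whose product forms channels of luminal and other glandular epithelia and whose loss causes deafness, ranged from 21 to 10382 over the 18 libraries. In ER- luminal cells it was at 453 and 351 in puberty, 2550 and 1109 in adulthood, and 8408 and 10382 in pregnancy. In ER+ luminal cells it was at 27 and 21, 171 and 108, and 2339 and 8344 at these stages. Every adult value lay above every puberty value and below every pregnancy value of the same luminal population. Basal libraries had 108 and 21 in puberty, 2249 and 291 in adulthood, and 1943 and 3176 in pregnancy, so the adult and pregnancy basal values overlap.

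Pregnancy against puberty, Gjb2 was higher in all 3 populations. The mean rose from 24.0 ± 4.2 to 5342 ± 4246 in ER+ luminal cells (SD, n = 2), a ratio of 223 (log2 difference 7.48 ± 1.00, limma adjusted p = 0.000808). In ER- luminal cells it rose from 402.0 ± 72.1 to 9395 ± 1396, a ratio of 23.4 (4.55 ± 1.00, limma adjusted p = 0.0138), a call lost without puberty replicate 1 (4.73, limma adjusted p = 0.0535), without puberty replicate 2 (4.36, 0.104 by the same test) and without pregnancy replicate 2. In basal cells it rose from 64.5 ± 61.5 to 2560 ± 872, a ratio of 39.7 (5.67 ± 1.00, limma adjusted p = 0.0192), a call lost without puberty replicate 2 (4.51, limma adjusted p = 0.127) and without either pregnancy library. Without pregnancy ER+ replicate 2, the ER+ estimate was 6.56 (limma adjusted p = 0.0113).

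Gjb2 was already above its puberty level in adult cells in each population, but the difference passed only in basal cells, where it rests on 1 library. Adult ER+ cells differed from puberty by 2.46 ± 1.00 (limma adjusted p = 0.206) and adult ER- cells by 2.07 ± 1.00 (limma adjusted p = 0.327). The adult basal estimate was 4.05 ± 1.00 (limma adjusted p = 0.0318) and fell to 2.58 (limma adjusted p = 0.127) without adult basal replicate 1, the library with the high milk protein sum. That call was also lost without either puberty library (limma adjusted p = 0.0541 and 0.178). From adulthood to pregnancy Gjb2 rose 38.3-fold in ER+ cells (5.01 ± 1.00, limma adjusted p = 0.00679), which did not pass without pregnancy replicate 2 (4.1, limma adjusted p = 0.0659). The same step was 5.14-fold in ER- cells (2.47 ± 1.00, limma adjusted p = 0.126) and 2.02-fold in basal cells (1.62 ± 1.00, limma adjusted p = 0.347), and neither passed.

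Between the luminal populations Gjb2 was lower in ER+ cells (-2.90 ± 0.58 averaged over stages, limma adjusted p = 0.00406). The mean in ER- cells was 16.8 times that in ER+ cells in puberty, 13.1 times in adulthood and 1.76 times in pregnancy. Without the adult libraries the average difference was -2.54 (limma adjusted p = 0.0227), and without the puberty libraries it was -2.35 and did not pass (limma adjusted p = 0.0904). Puberty and adult libraries of the 2 luminal populations did not overlap at the same stage, and in pregnancy the lowest ER- value, 8408, lay just above the highest ER+ value, 8344. Basal and luminal cells did not differ in Gjb2 beyond the spread (-0.55 ± 0.50, limma adjusted p = 0.418).

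Gjb6, which encodes a close relative of the Gjb2 product that can share channels with it, was low before pregnancy in luminal cells, and at 0 in 3 of the 4 puberty and adult ER+ libraries. ER+ luminal libraries had 4 and 0 in puberty, 0 and 0 in adulthood, and 715 and 2884 in pregnancy. ER- luminal libraries had 9 and 0, 48 and 76, and 2504 and 4326. Basal libraries had 17 and 13, 478 and 43, and 501 and 1097. All 6 pregnancy libraries lay above all 12 others, the closest being adult basal replicate 1 at 478 and pregnancy basal replicate 1 at 501.

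The pregnancy level of Gjb6 was far above puberty in the luminal cells. In ER+ cells the puberty value rests on 2 reads, and the ratio of pregnancy to puberty was 811 with an exact 95% binomial interval of 224 to 6704 that covers counting error only (log2 difference 9.33 ± 1.22, limma adjusted p = 0.000329). In ER- cells the puberty value rests on 4 reads, all in 1 library, and the ratio of the means was 759 (10.02 ± 1.22, limma adjusted p = 0.000326), a call lost with only the groups compared in the fit (limma adjusted p = 0.0618). In basal cells it was 53.3 (5.55 ± 1.22, limma adjusted p = 0.0381), a call lost when any 1 of the 4 libraries was left out (limma adjusted p = 0.136 to 0.255). Without pregnancy ER+ replicate 2 the ER+ estimate was 8.32 (limma adjusted p = 0.00503). Against adulthood, where both ER+ libraries held no read and 3 reads over the group would allow a mean value of 12, Gjb6 was at least 150-fold higher in pregnancy ER+ cells (limma adjusted p = 0.000116), and at least 59.6-fold by pregnancy replicate 1 alone. In ER- cells it was 55.1-fold higher than in adulthood (5.74 ± 1.22, limma adjusted p = 0.0102), a call lost without adult replicate 2 (6.07, limma adjusted p = 0.0551) and without pregnancy replicate 2 (5.35, limma adjusted p = 0.0763). In basal cells this step gave 2.35 ± 1.22 (limma adjusted p = 0.252). Adulthood against puberty did not pass for Gjb6: the differences were -1.16 ± 1.22 in ER+, 4.28 ± 1.22 in ER- and 3.19 ± 1.22 in basal cells (limma adjusted p = 0.689, 0.0797 and 0.124).

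Population differences of Gjb6 depend on the stage and on how they are averaged. ER+ cells were lower than ER- cells by -2.55 ± 0.71 (limma adjusted p = 0.0184), but without the adult libraries, in which ER+ cells held no read, the value was -0.85 (limma adjusted p = 0.558). The call was also lost without puberty ER+ replicate 2 (limma adjusted p = 0.0615) and without pregnancy ER+ replicate 1 (limma adjusted p = 0.0545). The log2 average was higher in basal than in luminal cells (1.75 ± 0.61, limma adjusted p = 0.0355), whereas the plain mean over all libraries was lower in basal cells, 358.2 against 880.5. The basal mean was 4.20 times the ER- mean in adulthood and 0.23 times it in pregnancy. Without the adult libraries the basal difference was 0.51 (limma adjusted p = 0.623), and it was lost in 15 of 31 alternatives, among them 10 of the libraries left out singly.

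The summed markers of ER- luminal cells moved with Gjb2 and Gjb6 in the pregnancy ER+ and basal libraries. In percent of the pregnancy ER- mean, ER+ replicates 1 and 2 had 24.9% and 88.8% of Gjb2, 20.9% and 84.5% of Gjb6, and 36.4% and 83.5% of the summed ER- markers. Basal replicates 1 and 2 had 20.7% and 33.8% of Gjb2, 14.7% and 32.1% of Gjb6, and 26.1% and 37.9% of the ER- markers. In each pair the library with the higher ER- marker sum also had more of both connexins. Some single markers went the other way. Aldh1a3 was at 568 and 511 in ER+ and 254 and 206 in basal replicates 1 and 2, and Itga2 at 1387 and 1163 in the basal ones. All 7 markers of that list had reads in these libraries, and 1 of them, Lalba, is also a milk protein gene. In adult basal cells, replicates 1 and 2 had 122.9% and 15.9% of the adult ER- mean of Gjb2, 771.0% and 69.4% of Gjb6 and 39.5% and 24.7% of the ER- markers, while their milk protein sums were 432.7% and 61.9%. The 2 pregnancy ER- libraries differed in milk protein sum, 801274 against 94145, with Gjb2 at 8408 and 10382 and Gjb6 at 2504 and 4326, so the library with the lower milk sum had the higher connexin values. In puberty, ER+ cells had 10.9% and 6.4% of the ER- marker sum and 6.7% and 5.2% of Gjb2. The part of ER- luminal cells in these values was not tested.

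**Figure D2:**
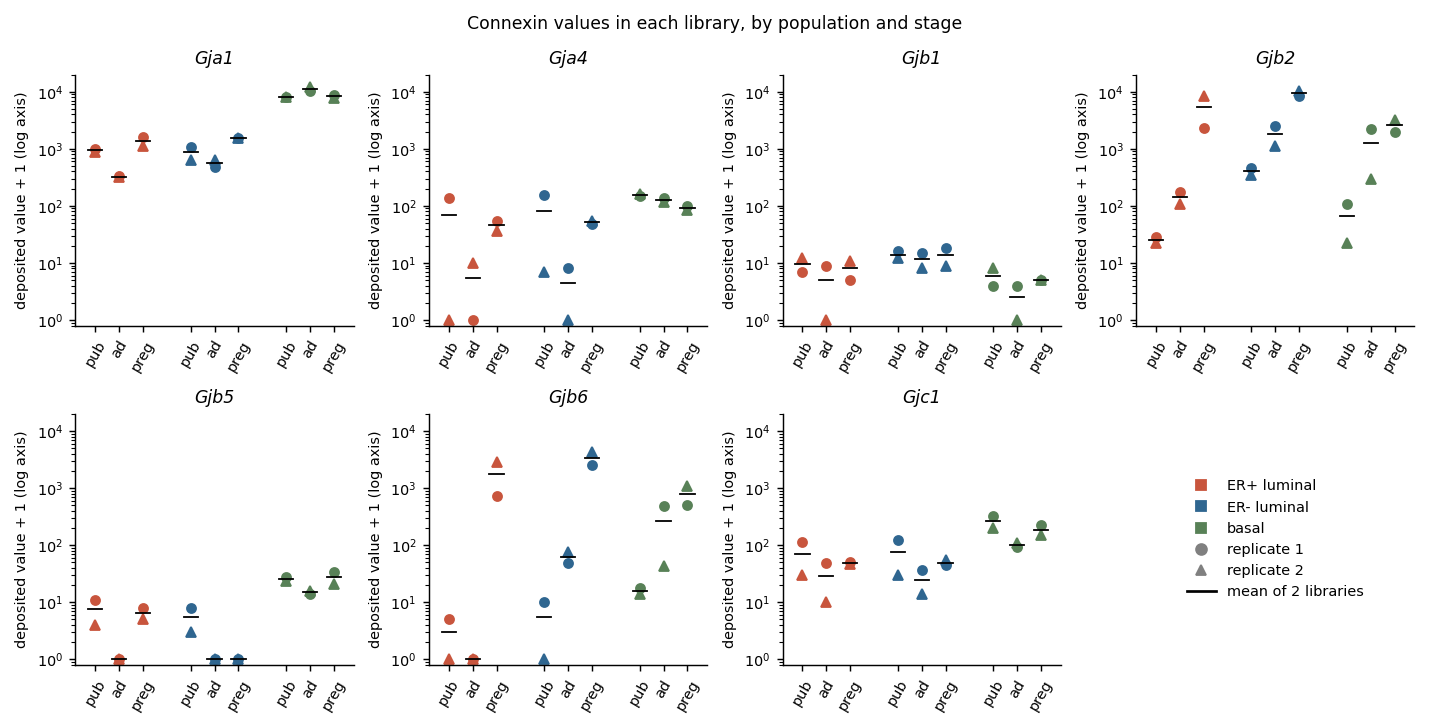
Deposited value + 1 (vertical log axis) of each of the 7 connexins in all 18 libraries, by population (colour) and stage (horizontal axis), with circles and triangles for replicates 1 and 2 and a black line for the mean. Gja1 separates basal from luminal libraries, Gjb2 and Gjb6 are highest in pregnancy, and the other 4 genes stay below 400.

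Gja4, an endothelial connexin gene, was low and uneven. Basal libraries had 147 and 159 in puberty, 136 and 118 in adulthood and 99 and 83 in pregnancy. ER+ luminal libraries had 136 and 0, 0 and 9, and 54 and 36, and ER- luminal libraries 152 and 6, 7 and 0, and 48 and 53. Puberty replicate 1 of both luminal populations was thus at basal level, and replicate 2 at or near 0. Gja4 was higher in basal than in luminal cells by 3.11 ± 1.03 (limma adjusted p = 0.03), a call that did not pass without the adult libraries (1.95, limma adjusted p = 0.306) or, among others, when any 1 of the 6 basal libraries was left out.

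In the luminal libraries endothelial markers were high where Gja4 was high. The sum of 8 of them was 7937 and 7852 in replicate 1 of puberty ER+ and ER- cells, where Gja4 was 136 and 152, and 708 and 1756 in replicate 2, where Gja4 was 0 and 6. It was 268 to 570 in the adult luminal libraries, with Gja4 at 0 to 9, and 2520 to 4639 in the pregnancy luminal libraries, with Gja4 at 36 to 54. Basal libraries had marker sums of 3955 to 12294 and followed this order in part. The lowest sums, 4746 and 3955 in pregnancy replicates 1 and 2, went with the lowest Gja4, 99 and 83. The highest sum, 12294 in puberty replicate 2, went with the highest Gja4, 159. Between these the order was reversed: puberty replicate 1 at 7370 had 147, adult replicate 1 at 8838 had 136, and adult replicate 2 at 11208 had 118. Puberty luminal replicates 1 and 2 also differed in adipocyte markers (7495 and 1159 in ER+, 10103 and 1925 in ER- cells) and in the basal and pericyte sums. Their fibroblast sums differed in the opposite direction. Of the list, Cldn5 was at 0 in both adult ER+ libraries and adult ER- replicate 2, and Tie1 in adult ER+ replicate 1. Among 10969 tested genes with a mean value of at least 100, those most like Gja4 over the 9 group means were Hexim1, Gimap4 and Cdh5 (Pearson r = 0.986, 0.982 and 0.981), of which Cdh5, the endothelial cadherin, is on the marker list. The part of endothelial or other cells in the Gja4 values was not tested.

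**Figure D3:**
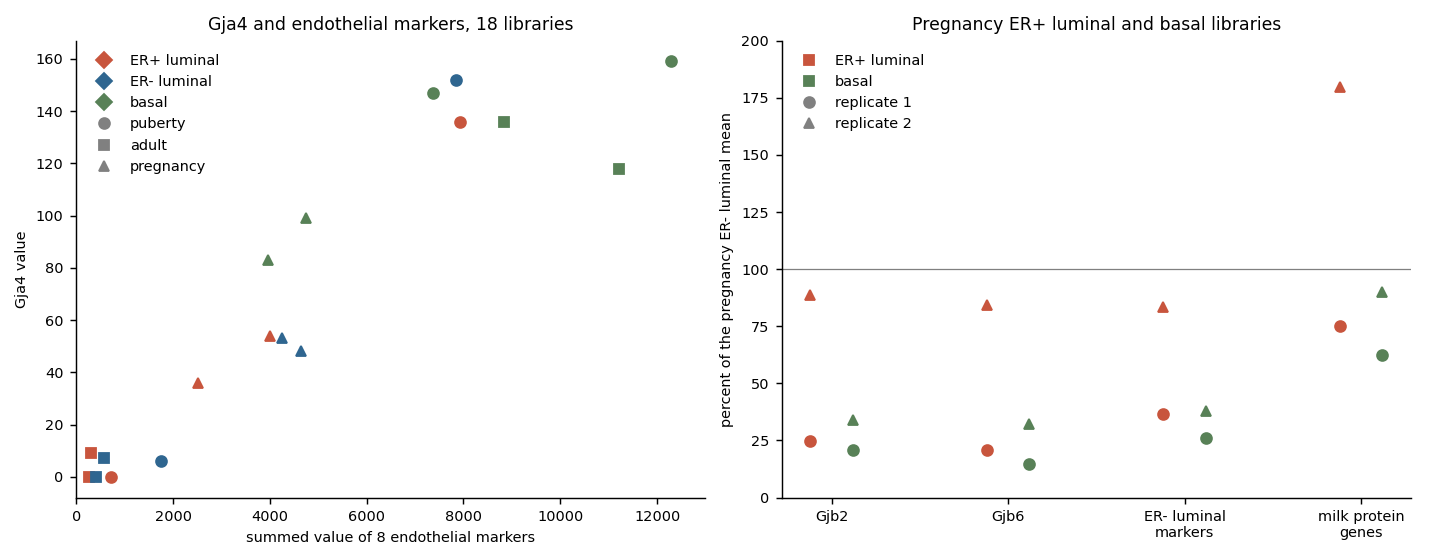
Left, Gja4 value against the summed value of 8 endothelial markers in 18 libraries, where the libraries near 0 on both axes are adult luminal and puberty luminal replicate 2. Right, Gjb2, Gjb6, the ER- luminal marker sum and the milk protein sum in pregnancy ER+ and basal libraries as percent of the pregnancy ER- luminal mean (grey line at 100), where triangles lie above circles for each population.

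Gjc1, known from smooth muscle and heart, was higher in basal than in luminal cells (2.07 ± 0.40, limma adjusted p = 0.000718; 2.0 without the adult libraries, limma adjusted p = 0.00417). Its basal values were 327 and 197, 93 and 108, and 224 and 150 over the 3 stages. ER+ luminal libraries had 111 and 29, 47 and 9, and 50 and 46, and ER- luminal libraries 123 and 29, 35 and 13, and 44 and 53. The groups overlap, since puberty luminal replicate 1 lay above both adult basal libraries. Basal, pericyte and endothelial marker sums differed between the puberty luminal replicates in the same direction as Gjc1. The fibroblast sum differed in the opposite direction. In ER+ replicates 1 and 2 the sum of 8 basal markers was 12236 and 880, that of 6 pericyte markers 9661 and 5594 and that of 8 endothelial markers 7937 and 708. In ER- replicates 1 and 2 these sums were 13467 and 3057, 10287 and 5423, and 7852 and 1756. The sum of 6 fibroblast markers was 15077 and 50442 in ER+ replicates 1 and 2, and 11760 and 54614 in ER- replicates 1 and 2. Within the pericyte sums, Notch3 gave 5489 and 5007 in ER+ and 6642 and 4572 in ER- replicates. Notch3 was higher in luminal than in basal libraries. The part of such cells in the Gjc1 values was not tested. The basal mean was 3.45 to 4.19 times the mean of either luminal population at each stage, and no stage difference passed.

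Gjb5, a connexin gene of stratified epithelia, was a low basal transcript. Basal libraries had 27 and 23 in puberty, 13 and 15 in adulthood and 33 and 20 in pregnancy, and all 6 lay above all luminal libraries, whose values were 0 to 10. It reached a value of 10 in 7 libraries, 6 of them basal, so it entered the test through the group in which it is high, and its means of 21.8 in basal and 2.8 in luminal libraries are given as a description. Both adult luminal populations and pregnancy ER- cells held no read. No stage difference passed.

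Gjb1, the liver connexin gene, stayed at 0 to 17 in every library and reached 10 in 6, all luminal. ER- luminal libraries had 15 and 11, 14 and 7, and 17 and 8 over the stages, ER+ luminal libraries 6 and 11, 8 and 0, and 4 and 10, and basal libraries 3 and 7, 3 and 0, and 4 and 4. With so few reads no comparison passed, and a difference of a few reads was not detectable at this depth. Basal against luminal did pass with quantile normalization and without adult ER+ replicate 2. Gjb1 entered the test through luminal cells, so these calls are no support for a difference.

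In 1 test over all 22315 genes, 2 of the 7 connexins were called between ER+ and ER- luminal cells, Gjb2 and Gjb6, both lower in ER+, where 25.5% of all genes were called. The 7 had a median log2 difference of -0.50, against -0.11 over all genes. Between basal and luminal cells 5 passed, all higher in basal, of which Gjb5 had to differ because it entered the test through basal cells. The other 4 were Gja1, Gja4, Gjb6 and Gjc1. Of all genes, 42.5% were called in this comparison. The median of all 7 was 2.07, against -0.03 over all genes. Without the adult libraries Gjb2 passed between the luminal populations, and Gja1 and Gjc1, beside Gjb5, between basal and luminal cells.

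For pregnancy against puberty 2 members were called in ER+ cells, 3 in ER- cells and 2 in basal cells, all higher, with 13.1%, 14.8% and 2.07% of all genes called. Gjb2 and Gjb6 were called in each population, and Gja1 in addition in ER- cells. For pregnancy against adulthood 3 members were called in ER+ cells (Gja1, Gjb2 and Gjb6), 2 in ER- cells (Gja1 and Gjb6) and 0 in basal cells, with 17.9%, 14.4% and 7.26% of all genes called. None of the 7 had an unadjusted limma p under 0.05 in that basal comparison. For adulthood against puberty the calls were 1 in ER+ cells (Gja1, lower), 0 in ER- cells and 1 in basal cells (Gjb2, higher), with 5.73%, 3.66% and 9.73% of all genes called. In ER- cells 3 members had an unadjusted limma p under 0.05. These comparisons share groups with each other.

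**Figure D4:**
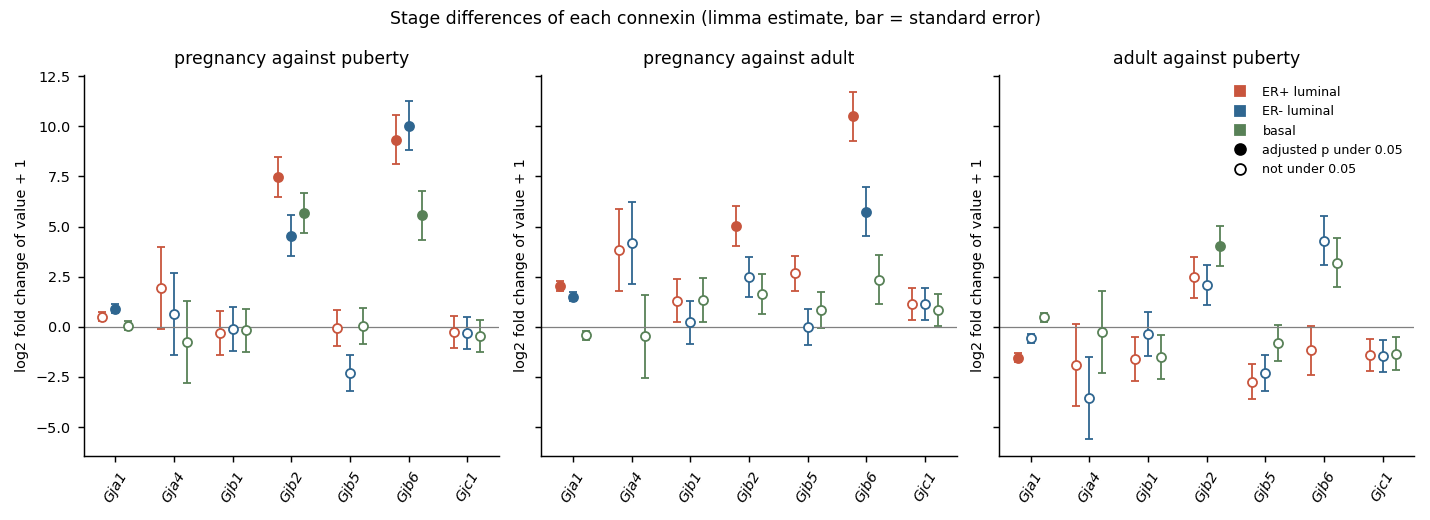
Log2 fold change of value + 1 (vertical axis) of each connexin between stages, in ER+ luminal, ER- luminal and basal cells, with standard error bars and filled points where the limma adjusted p was under 0.05. Filled points of Gjb2 and Gjb6 lie well above 0 in all 3 populations for pregnancy against puberty.

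Whether the pregnancy effect (pregnancy against puberty) differed between populations was tested as a difference of differences, and no connexin of the 7 passed. Of all genes, 0.627% were called for ER- against basal cells, 1.63% for ER+ against basal cells and 2.31% for ER+ against ER- luminal cells. An unadjusted limma p under 0.05 was seen for 2, 1 and 0 members. The effect on Gjb6 was larger in ER- than in basal cells by 4.48 ± 1.73 (limma adjusted p = 0.329) and in ER+ than in basal cells by 3.78 ± 1.73 (limma adjusted p = 0.447). For Gjb2 the difference was -1.12 ± 1.41 for ER- against basal, 1.81 ± 1.41 for ER+ against basal and 2.93 ± 1.41 for ER+ against ER- cells (limma adjusted p = 0.822, 0.765 and 0.406). With these standard errors a difference of several fold between populations would not have been detected.

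Over the 9 group means of log2(value + 1), the members fell into patterns that are given here as descriptions, since the 9 points are few and differ in depth and in the marker sums of other cells. Gjb2 and Gjb6 had a Pearson r of 0.87. Gja1, Gja4, Gjb5 and Gjc1 had r between 0.77 and 0.91 with each other. The genes most like Gja1 were Fst, which encodes the activin antagonist follistatin, Cacna2d1, a calcium channel subunit, and Tenm3 (r = 0.993, 0.989 and 0.987). Those most like Gjb2 were Zgrf1, Timd2 and Dtl (r = 0.985, 0.979 and 0.974), and those most like Gjb6 were Ccdc88b, Bcl2l15 and Chrdl2 (r = 0.973, 0.97 and 0.97). For Gjc1 they were St3gal2, Aoc3 and Elmo2 (r = 0.985, 0.983 and 0.98), for Gjb5 Cped1, Dcn and Naalad2 (r = 0.974, 0.966 and 0.958), and for the scarcely detected Gjb1 Tax1bp3, Gabpb2 and Zfp472 (r = 0.944, 0.927 and 0.923).

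Of a list of 13 other connexin and pannexin genes, 8 were tested. Between basal and luminal cells, where 42.5% of all genes were called, 4 were higher in basal cells. Panx1, which encodes a related channel protein, was higher by 1.75 ± 0.15 (limma adjusted p = 2.45e-07) and Gjc3 by 3.67 ± 0.64 (limma adjusted p = 0.000252), and both calls held in all 31 alternatives. Gjc3 was high mainly in puberty: basal libraries had 510 and 147 in puberty, 16 and 19 in adulthood, and 17 and 30 in pregnancy. Puberty ER- replicate 1, at 113, lay above all adult and pregnancy basal libraries. The other 2 genes called higher were Gja5 and Gja10, and 1 gene, Gjd4, was lower. Each of these 3 calls was lost without the adult libraries. Between luminal populations 2 were called, Gja10 and Gjd4, both lower in ER+ cells and both scarce (0 to 28 in every luminal library). Of all genes, 25.5% were called there. Gjd4 reached a value of 10 only in ER- libraries, and Gja10 only in ER- and basal libraries. Both thus entered the test through groups in which they are high, and their calls in either comparison are given as descriptions. The Gjd4 call was lost in 10 of 24 alternatives (highest limma adjusted p = 0.294), and the Gja10 call without the puberty libraries (limma adjusted p = 0.101). Panx1 was at 153 and 109 in puberty and 319 and 420 in pregnancy in ER+ cells, at 130 and 115 and then 498 and 736 in ER- cells, and at 646 and 667 and then 554 and 557 in basal cells. It thus rose in both luminal populations (1.5 ± 0.30 and 2.30 ± 0.30, limma adjusted p = 0.0036 and 0.000232), while the basal difference was -0.24 ± 0.30 (limma adjusted p = 0.842). The ER+ call was lost without puberty replicate 2 or without pregnancy replicate 2 (highest limma adjusted p = 0.0582).

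Of 12 genes for connexin partners, such as the scaffold gene Tjp1 and the adherens junction genes Cdh1 and Ctnnb1, 8 were higher and 3 lower in basal than in luminal cells. The share called over all genes was 42.5%. For pregnancy against puberty 1 was higher and 2 lower in ER+ cells, 1 and 1 in ER- cells, and 0 and 2 in basal cells. The shares called over all genes were 13.1%, 14.8% and 2.07% in these populations. Prkca, which encodes a kinase that phosphorylates connexins, was lower in pregnancy in all 3 populations, by -1.03 ± 0.30 in ER+, -2.02 ± 0.30 in ER- and -1.75 ± 0.30 in basal cells (limma adjusted p = 0.0345, 0.000639 and 0.00737). The ER+ call was lost when any 1 of its 4 libraries was left out and the basal call in 3 of 4 cases (highest limma adjusted p = 0.176 and 0.101 over the alternatives).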

How the data were processed

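RNA of sorted cells was purified with a column kit and sequenced from Ovation Solo libraries, per the protocols in the labels. The deposited table holds, for each gene, a whole-number signal in every library. The submitters' processing notes name STAR, Picard, HTSeq and the build GRCm38 (mm10). The sources used here give neither the use of strand nor the annotation release. Of 46868 rows, 46257 gene IDs were kept. Library totals were 19841695 to 19897395, so the signal was taken as reads scaled to 20000000, and the value of 1 read was inferred from the steps between low values. Read numbers and bounds rest on that inference.

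The test was limma 3.58.1 in R 4.3.3 (trend and robust prior) on log2(value + 1) of 22315 genes that reached a value of 10 in 2 or more libraries, all 18 libraries in 1 model with 9 group means and 9 residual degrees of freedom, 2-sided, Benjamini-Hochberg adjusted over all genes, threshold 0.05. Differences on this scale understate the change of low genes. All 7 members passed the filter. The test was also run on simulated data with known changes. These data had the same dispersion setting for all genes and no differences between populations beyond the planted changes. They therefore say nothing of recovery at the spread seen for Gjb2 and Gjb6. Levels between genes are per kilobase of merged exons in GENCODE vM21. No annotated gene overlaps a member. Python 3.11.15 with numpy 2.4.6, pandas 2.3.3 and matplotlib 3.10.9 made tables and plots.

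All 7 members are named whatever their values, as are called genes of the connexin, pannexin and partner lists and the 3 genes most like each member. Some genes of these lists are not reported here, and counts over a list leave them out. Members, lists and markers were chosen with earlier results of these data known. Leaving out the libraries of a stage from the 2 averaged comparisons was chosen after seeing the data. Alternatives were other pseudocounts, filters, scalings and priors, the compared groups alone, a replicate term, each library left out and longest transcripts.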

Additional observations from a re-analysis of the deposited data

Results flagged for a closer look

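In 3 cases a named gene's pregnancy effect, its log2 difference between pregnancy and puberty, differed between 2 populations by the test of that difference, and none of these genes was among the 7 connexins. The shares called over all genes were 0.627% (ER- against basal), 1.63% (ER+ against basal) and 2.31% (ER+ against ER-). Panx1 had a larger effect in ER- luminal than in basal cells (2.54 ± 0.43, limma adjusted p = 0.0126), lost in 5 of 18 alternatives (highest limma adjusted p = 0.0939 over the alternatives). Dbn1, which encodes the actin-binding connexin partner drebrin, had a larger effect in ER+ luminal cells than in basal cells (3.41 ± 0.48, limma adjusted p = 0.00225) and than in ER- luminal cells (1.95 ± 0.48, limma adjusted p = 0.0457), the latter lost in 10 of 18 alternatives (highest limma adjusted p = 0.23).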

How the results depend on the processing

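The members' 21 called differences kept their direction in all 400 alternative values and their call in 349, and 51 values lost it. The number of connexins called among the 7 moved by over 1.5 times as follows. With a pseudocount of 10, 1 was called between ER+ and ER- luminal cells. With quantile normalization, 1 was called for adulthood against puberty in ER- cells. With only the groups compared in the fit, 4 were called for pregnancy against adulthood in ER- cells, with Gjb2 and Gja4 gained, and 0 for adulthood against puberty in basal cells. Without the adult libraries, 1 was called between ER+ and ER- cells and 3 between basal and luminal cells. Leaving out 1 library gave 1 to 3 calls for ER+ against ER-, 3 to 5 for basal against luminal, 1 to 2 for pregnancy against puberty in ER- and 0 to 1 in basal cells, 2 to 3 and 1 to 2 for pregnancy against adulthood in ER+ and ER- cells, and 0 to 1 for adulthood against puberty in ER- and in basal cells. Other settings exchanged calls: quantile normalization lost Gjb6 between ER+ and ER- and between basal and luminal cells (limma adjusted p = 0.0545 and 0.0597) and gained Gjb5 and Gjb1 there, and with pseudocounts of 5 and 10 Gjb6 did not pass between basal and luminal cells (0.114 and 0.246 by the same test). Since Gjb1 entered the test through luminal cells, its gained call between basal and luminal cells is a description only. Gjb5 passed for pregnancy against adulthood in ER+ cells with median-ratio or TMM factors or a prior that is not robust (limma adjusted p = 0.042, 0.0392 and 0.0327). That comparison sets 3 reads in pregnancy against 0 in adulthood, where the libraries were shallowest. The gained Gjb5 call between ER+ and ER- cells rests on luminal values of 0 to 10. Both Gjb5 calls are thus descriptions only.

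A change of sign occurred only in differences that had not passed. Gjb6 gave 0.28 for adulthood against puberty in ER+ cells with quantile normalization, and its pregnancy effect in ER+ against ER- cells (-0.70 ± 1.73) ranged from -2.36 to 0.97 with 1 library left out. Likewise Gjb2 for the pregnancy effect in ER- against basal cells ranged from -2.27 to 0.04, and Gja1 for pregnancy against puberty in basal cells from -0.02 to 0.11. The cause was not tested.

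With longest transcripts the share of Gja1 was 54.65% in adult and 14.32% in pregnancy ER+ cells, 47.54%, 17.31% and 6.85% in puberty, adult and pregnancy ER- cells, and 90.38% and 58.07% in puberty and pregnancy basal cells. That of Gjb2 was 3.16%, 37.02% and 60.94% in puberty, adult and pregnancy ER+ cells, 37.64%, 77.52% and 65.63% in ER- cells, and 28.41% in pregnancy basal cells.

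Of 36 pairs of groups, 1 had a correlation of same-numbered deviations over 0.1 (range -0.09 to 0.27). That pair was puberty ER+ and puberty ER- luminal cells (0.27), whose replicates 1 and 2 also differed alike in endothelial, adipocyte and basal marker sums. All pairs within a stage had a positive correlation, at least 0.06 in puberty, 0.06 to 0.09 in adulthood and 0.02 to 0.08 in pregnancy. Pairs across stages had -0.09 to 0.07. A pairing of same-numbered libraries within a stage is thus possible, and the fit treated them as independent. With a replicate block, 2 and 5 connexins were called in the population comparisons and the block changed no call of a member. That block was 1 term common to all stages and does not model a pairing within each stage. Count models on recovered reads were not run, because the whole-read check of the deposited values was not met in 15 libraries. The 4 adult luminal libraries were the shallowest, which limits the members with few reads there.

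Counts over all genes also moved. With only the groups compared, 1955 genes against 461 were called for pregnancy against puberty in basal cells, 993 against 3991 for pregnancy against adulthood in ER+ cells, 234 against 1278, 256 against 817 and 731 against 2172 for adulthood against puberty in ER+, ER- and basal cells, and 552 against 140 for the pregnancy effect in ER- against basal cells. Quantile normalization gave 2503 against 1620 for pregnancy against adulthood in basal cells. For ER+ against ER- cells the count was 5691, and 3241 and 3462 without the puberty and the adult libraries. Leaving out 1 library gave as few as 75 calls for pregnancy against puberty in basal cells and 853 against 3307 in ER- cells.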
